A study of Mus musculus with 4 samples.

Results

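The 10 genes described here act in antigen display and immune privilege, and were measured in cells of the bulge, the niche that houses the stem cells of the mouse hair follicle. They were H60c, a ligand of the activating lymphocyte receptor NKG2D, the MHC class I genes H2-K1, H2-D1 and B2m, the peptide loading genes Tap1, Tap2 and Tapbp, the class I transactivator Nlrc5, and the inhibitory ligands Cd200 and Cd274. The 10 genes were chosen by name from the 55536 genes of the count table, with earlier results of these data known, and H60c was included because it was lower in knockouts. All 10 were found, and all 10 passed the filter on low counts that left 14259 genes for testing. Knockout mice carried Cdh5CreERT2, a tamoxifen-inducible Cre under a promoter active in endothelium, with Alk1 flox/flox; control mice were littermates without Cre, and the labels do not say whether they carried the floxed alleles. All mice, of C57BL/6 background, were given tamoxifen by intraperitoneal injection on day 17 after birth (100 µg/g), and tissue was taken on day 20, with 2 libraries per group (control 1 and 2, knockout 1 and 2). The deletion was therefore directed at blood vessel cells, and the RNA came from bulge cells, which are not its target. The labels do not describe how bulge cells were isolated. They also leave unsaid whether a library holds 1 mouse or a pool, so p-values measure the spread between these libraries.

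MHC class I molecules are pairs of a heavy chain, such as the products of H2-K1 and H2-D1, and the invariant light chain encoded by B2m. They carry peptides that the TAP1 and TAP2 transporter pumps into the endoplasmic reticulum and that tapasin, the product of Tapbp, helps to load, and they show them to CD8 T cells and natural killer cells. NLRC5 activates transcription of class I genes through a conserved promoter module. The bulge is regarded as a site of relative immune privilege: its cells display little class I antigen and carry CD200, which restrains myeloid cells, and low Nlrc5 has been tied to low class I in quiescent follicle stem cells. H60c is expressed in mouse skin, where dendritic epidermal T cells carry NKG2D.

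The upstream sequences of 3 class I genes are printed because in these genes control 1 exceeded control 2 and knockout 2 exceeded knockout 1, as described further on. For H2-D1 the difference between knockouts was small (log2 0.06). Tap1, Tap2 and Nlrc5 had the same order and are not printed. Cd200, printed below for another reason, also had it, by a hair (log2 0.02 between controls and 0.01 between knockouts). A link between sequence and this order was not tested. RefSeq promoter windows (GRCm38.p6) were held for 8 of the 10 genes, and the 250 bases before each start site were searched on both strands for an NF-κB consensus, for an interferon-type element in a longer form (GAAA, any 2 bases, GAAA) and a shorter form (GAA, any 2 bases, GAAA), chosen with these sequences in view, for the X2-type element TGACG and for the Y box ATTGG (an inverted CCAAT box). Sequences run 5′ to 3′ on the strand of the gene, with matches in capitals.
H2-K1 (chr17:34000349-34000478, minus strand): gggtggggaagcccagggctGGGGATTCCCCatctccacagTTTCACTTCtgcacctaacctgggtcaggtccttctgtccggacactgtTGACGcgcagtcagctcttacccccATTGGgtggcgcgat
B2m (chr2:122147541-122147658, plus strand): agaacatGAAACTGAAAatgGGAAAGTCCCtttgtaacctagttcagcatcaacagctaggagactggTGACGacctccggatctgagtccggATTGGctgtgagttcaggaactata
H2-D1 (chr17:35262923-35262952, plus strand, the NF-κB and interferon-type elements only, before the RefSeq start but inside an annotated GENCODE exon): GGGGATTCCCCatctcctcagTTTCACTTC
In H2-K1, H2-D1 and B2m the elements TGACG and ATTGG lay in the same order with 20 bases between them. A search that allowed 15 to 25 bases between them found the pair in 109 of 27025 promoters (0.403%). That range lies around the 20 bases seen in these 3 genes, so the share is a description and not a test. The NF-κB consensus was present in 3.74% of promoters, the longer interferon-type form in 3.05%, the shorter form in 6.35%, TGACG in 17.8% and ATTGG in 34.5%. Tap1 held TGACG and ATTGG on opposite strands, and no NF-κB or interferon-type match. The 30-base stretch of H2-D1 differed from that of H2-K1 at 1 base, A18T (H2-K1 base first, counted from 1 at the 5′ end of the stretch).

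H60c and Cd200 are shown as the ligands that stand on either side of the comparison below, 1 lower and 1 level between groups.
H60c (chr10:3267772-3267921, minus strand): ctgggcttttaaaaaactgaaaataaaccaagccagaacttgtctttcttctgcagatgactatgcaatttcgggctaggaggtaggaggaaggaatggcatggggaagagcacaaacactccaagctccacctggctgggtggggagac
Cd200 (chr16:45409054-45409203, minus strand): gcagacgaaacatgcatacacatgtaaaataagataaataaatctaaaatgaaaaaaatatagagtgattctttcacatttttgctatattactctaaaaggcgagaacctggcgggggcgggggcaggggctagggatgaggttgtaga
None of the letters searched for occurred in these 150 bases of either gene. In the longer 250-base window, Cd200 held 1 TGACG, on the opposite strand, and H60c and Cd274 held none of the motifs. A match is a run of letters and not a known site, and no binding was measured here.

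**Figure D1:**
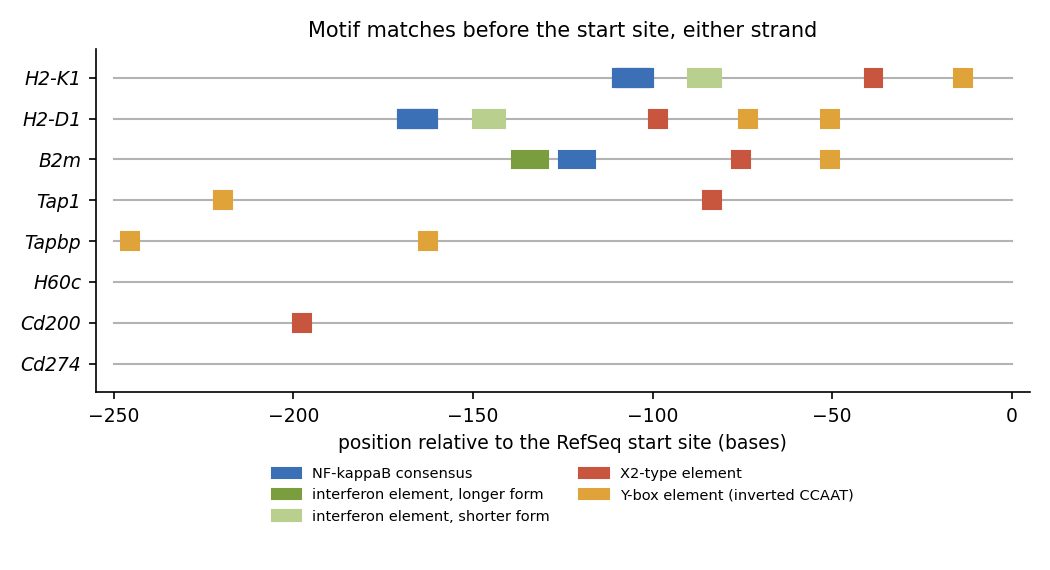
Matches to the searched motifs in the 250 bases before the RefSeq start site of 8 genes (horizontal axis: position in bases; coloured blocks: matches on either strand). H2-K1, H2-D1 and B2m hold an NF-κB match, an interferon-type match and the X2-type and Y-box elements with 20 bases between them, and the lines of H60c and Cd274 are empty.

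The 4 libraries held 16326906 to 29130974 counts. The labelled cell type was checked against its markers: Krt15, a bulge keratin, was at 29100 to 36000 CPM (counts scaled to the effective library size) and Cd34, a bulge surface protein, at 1330 to 1950 CPM. Krt10, a keratin of differentiated epidermis, was also present and ran from 1770 to 6680 CPM. Of 14259 genes, 1 passed edgeR's quasi-likelihood test at an adjusted p under 0.05 (0.00701% of those tested), and it was none of the 10. The number of libraries, 2 per group, limits what the test can call. At an unadjusted p under 0.05 in edgeR, 4.8% of tested genes were higher and 5.94% lower in knockouts. Both knockouts lay above both controls for 21.3% of tested genes and below for 23.6%. Counts of these kinds in the gene lists below are to be read beside these shares.

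The class I genes H2-D1, B2m and H2-K1 were among the more abundant transcripts of these libraries. The values are RNA levels in bulk libraries, and the display of class I molecules on bulge cells was not measured. Per kb of exon, the highest of the 10 was H2-D1, with a mean of 249 CPM per kb over the 4 libraries, above 99% of tested genes. B2m followed at 214 and H2-K1 at 148 CPM per kb. The ranges of H2-D1 (225 to 279) and B2m (187 to 238 CPM per kb) overlapped, while that of H2-K1 (119 to 184) lay below both. Cd200 came next at 71.9 CPM per kb, above 96% of tested genes, and Tapbp at 37.3. Tap2, Tap1 and H60c, at 18.3, 17.4 and 16.9 CPM per kb, had overlapping ranges and are not ordered by these data. Nlrc5 was far lower, at 2.76 CPM per kb, above 37.3% of tested genes. Cd274, which encodes PD-L1, the ligand of the T cell checkpoint receptor PD-1, was the lowest at 0.29 CPM per kb. These values use the merged exon length of all annotated isoforms, which understates genes with long rare exons.

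**Figure D2:**
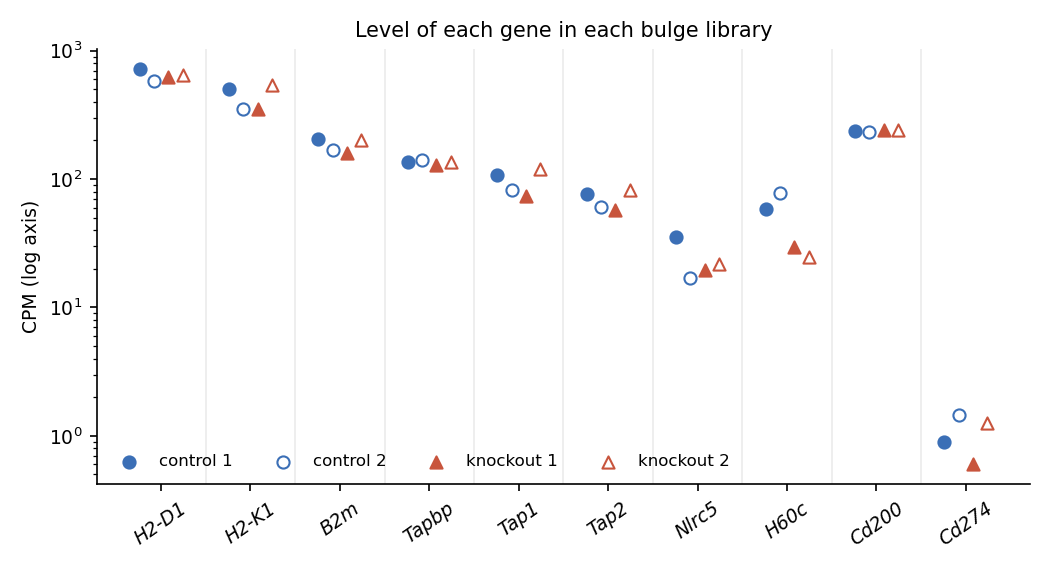
CPM of the 10 genes in each library (vertical axis: CPM, log scale; circles: controls; triangles: knockouts; filled: replicate 1; open: replicate 2). H60c is the gene whose knockouts, at 29.5 and 24.5 CPM, sit well below its controls, at 58.4 and 78.3 CPM; the 4 points of Cd200 lie level, and those of H2-K1, Tap1 and Tap2 are spread within each group.

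H60c, the stress-type ligand, measured 58.4 CPM in control 1 and 78.3 CPM in control 2 (975 and 2313 counts). In knockouts 1 and 2 it measured 29.5 and 24.5 CPM (641 and 511 counts). Both knockouts lay below both controls, and the gap between the groups was wider than the distance between libraries within either. Group means were 68.4 ± 14.1 (control) and 27 ± 3.53 CPM (knockout; SD, n = 2 libraries per group), a 2.53-fold lower level and a log2 fold change of -1.34 ± 0.19 (SE). This difference is the reason why H60c was chosen, so it is a description and carries no test; 23.6% of tested genes had both knockouts below both controls. The gene lies on chromosome 10, 3256208 to 3267771 (GRCm38), with no other annotated gene overlapping it.

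The other NKG2D ligands were close to absent. H60b, the nearest relative of H60c, had 0 and 3 counts in controls and 4 and 8 in knockouts, beside 511 to 2313 counts of H60c. Ulbp1, which encodes MULT1, had 1, 6, 0 and 1 counts in controls 1 and 2 and knockouts 1 and 2. Raet1d had 1 count in all, in control 2, and Raet1e had 0 in every library, where 3 counts, the most that a count of 0 allows, correspond to 0.1 to 0.18 CPM. These limits cover counting error only. Raet1a, Raet1b and Raet1c had no matching symbol. H60c was thus the one transcript of the 5 matched ligands that entered the test, and it supplied nearly all of their summed level, which was 58.4 and 78.7 CPM in the control libraries, against 29.6 and 24.9 CPM in the knockout libraries.

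Transcripts of the cells that could answer such a ligand were few. Klrk1, which encodes NKG2D, had 5 and 7 counts in controls and 17 and 5 in knockouts, and Hcst, its signalling adaptor DAP10, had 5 to 8 counts per library. Trdc, the constant region of the delta T cell receptor chain, was at 2.81 and 2.71 CPM in the control libraries, against 3.31 and 3.35 CPM in the knockout libraries. The 14 markers of T cells, dendritic epidermal T cells included, summed to 25.1 and 25.3 CPM in controls and to 35.7 and 25.1 CPM in knockouts. Of 11 tested, 0 passed edgeR's test or were called by DESeq2 or voom, with a median log2 fold change of 0.27. At an unadjusted p under 0.05 in edgeR, 2 were higher (Cd3d and Cd3g) and 0 lower, beside 4.8% and 5.94% of all tested genes. For 6 both knockouts lay above both controls, and for 0 below, beside 21.3% and 23.6% of all tested genes. Cd4, Cd8a and Gzmb had at most 2 counts in any library. The part of T cells in the H60c difference was not tested.

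Markers of other cells also differed between the libraries. Fibroblast markers, nearly all of it the collagen genes Col1a1 and Col1a2, summed to 183 and 233 CPM in the control libraries, against 136 and 141 CPM in the knockout libraries. Control 2 was thus highest and both knockouts were lowest, as for H60c. Between the knockouts the order differed, as knockout 1 was the lower for these markers and the higher for H60c. Of the 5 tested, 0 passed edgeR's test or were called by DESeq2 or voom. At an unadjusted p under 0.05 in edgeR, 0 were higher and 2, Col1a1 and Col1a2, lower, beside 5.94% of all tested genes lower. Dcn and Col3a1, at much lower levels, had log2 fold changes of 1.03 ± 0.66 and 0.84 ± 0.76 (SE). Each had its highest value in knockout 2 (3.26 and 2.97 CPM). Interfollicular differentiation markers summed to 14500 and 6370 CPM in the control libraries, against 10100 and 5310 CPM in the knockout libraries; all 14 had a log2 fold change below 0, and for none were both knockouts below both controls. Control 2, with the higher H60c of the controls, had the lower sum of these markers. Among knockouts this was reversed, as knockout 1, with the higher H60c, had the higher sum. Sebaceous gland markers had the same order in both groups, at 1360 and 684 CPM in the control libraries, against 855 and 507 CPM in the knockout libraries. The 12 markers of cycling cells summed to 81 and 57.1 CPM in the control libraries, against 41 and 32 CPM in the knockout libraries, and for 11 of them both knockouts lay below both controls, beside 23.6% of all tested genes. None of these markers passed edgeR's test (for the 12 of cycling cells, 0 higher and 5 lower at an unadjusted p under 0.05, beside 5.94% of all tested genes lower; 0 with DESeq2 or voom). The part of fibroblasts, differentiated cells or cycling cells in the H60c difference was not tested. In bulk RNA, fewer cells with a transcript and less of it per cell cannot be told apart.

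Genes with the most similar profile to H60c over the 4 libraries were sought among 10169 genes of at least 5 CPM. The measure was the root mean square difference of centred log2 CPM. The nearest was Sorl1, a sorting receptor, at 283 and 342 CPM in the control libraries, against 139 and 119 CPM in the knockout libraries (difference 0.062). It was followed by Atp6v0e2, a subunit of the vacuolar proton pump (0.109), Frem2, a basement membrane protein (0.119), Hmcn1, the matrix protein hemicentin (0.137), and Nrep (0.137). All 5 had knockouts below controls, which likeness to H60c favours, and their log2 fold changes ran from -1.09 to -1.51. None of them belongs to the antigen display lists. H60c has an exon length of 2817 bases, below the median of 4180 for tested genes, and the part of exon length in this likeness was not tested. With 4 libraries such likeness is a description of these profiles only.

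The class I heavy chains and their light chain did not separate the groups. H2-K1 measured 502 and 350 CPM in the control libraries, against 349 and 540 CPM in the knockout libraries. The highest and the lowest value both came from knockouts, and the groups overlapped fully (log2 fold change 0.06 ± 0.26, SE; edgeR adjusted p = 0.94). H2-D1 measured 720 and 580 CPM in the control libraries, against 620 and 648 CPM in the knockout libraries, with both knockouts between the controls (-0.04 ± 0.15, edgeR adjusted p = 0.94). B2m measured 204 and 169 CPM in the control libraries, against 160 and 203 CPM in the knockout libraries (-0.04 ± 0.17, edgeR adjusted p = 0.94). A p that misses the threshold does not show that these levels were equal.

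Heavy chain genes are near-identical over long stretches, and the sources used here do not give the counting tool's treatment of shared reads, so the split between them is uncertain. Summed, H2-K1 and H2-D1 gave 1220 and 930 CPM in the control libraries, against 969 and 1190 CPM in the knockout libraries. The sum over all 16 listed heavy chain genes was 1720 and 1360 CPM in the control libraries, against 1450 and 1880 CPM in the knockout libraries, of which H2-K1 and H2-D1 made up 63.3% to 71.2%. Of the 14 tested heavy chains, 0 passed edgeR's test (1 higher and 0 lower at an unadjusted p under 0.05; 0 with DESeq2 or voom). The median log2 fold change was 0.06, against -0.02 over all tested genes. Without knockout 2 that median was -0.34, and without knockout 1 it was 0.34.

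The nonclassical heavy chain H2-T23, which encodes Qa-1, the ligand of the NKG2A receptor of natural killer cells, had the smallest p of the list. It measured 271 and 263 CPM in the control libraries, against 317 and 413 CPM in the knockout libraries, with both knockouts above both controls, as for 21.3% of tested genes (log2 fold change 0.45 ± 0.16, edgeR adjusted p = 0.43). Among class I-like molecules, Fcgrt, the neonatal Fc receptor, measured 33 and 34.2 CPM in the control libraries, against 40.4 and 44.2 CPM in the knockout libraries (0.33 ± 0.13, edgeR adjusted p = 0.45). Mr1, which presents vitamin metabolites to MAIT cells, gave -0.02 ± 0.20. Of 5 tested class I-like genes 0 passed (1 higher at an unadjusted p under 0.05; 0 with DESeq2 or voom).

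**Figure D3:**
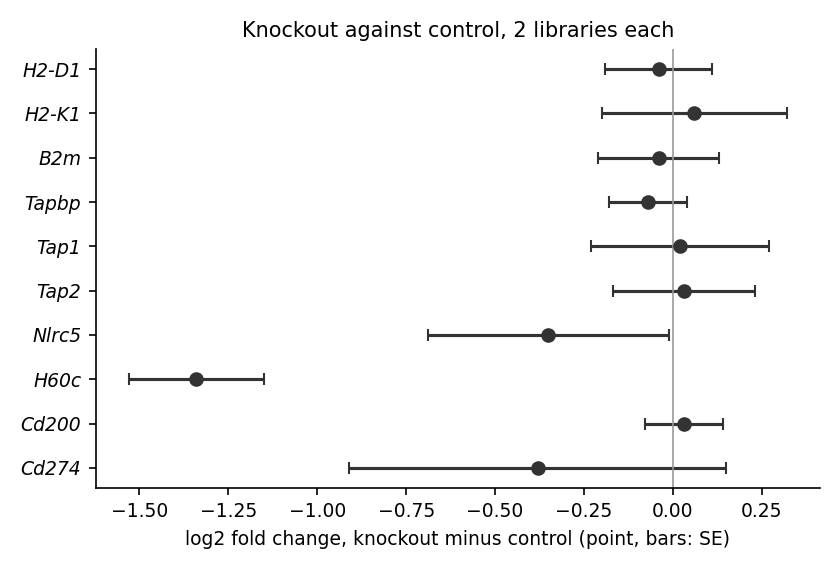
Log2 fold change, knockout minus control, of the 10 genes (points; bars: SE; n = 2 libraries per group). H60c lies at -1.34, while H2-D1, H2-K1, B2m, Tapbp, Tap1, Tap2 and Cd200 lie between -0.07 and 0.06; Nlrc5 and Cd274 have the widest bars.

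The peptide loading genes followed the same pattern. Tap1 measured 107 and 82.4 CPM in the control libraries, against 73.6 and 119 CPM in the knockout libraries, and Tap2 76.3 and 61.1 CPM in the control libraries, against 57.9 and 81.8 CPM in the knockout libraries. In both genes the knockouts enclosed the controls (log2 fold changes 0.02 ± 0.25 and 0.03 ± 0.20, edgeR adjusted p = 0.98 and 0.97). Tapbp was steadier, at 137 and 140 CPM in the control libraries, against 129 and 135 CPM in the knockout libraries (-0.07 ± 0.11, edgeR adjusted p = 0.83). Its knockouts lay below its controls, but the means differed by a factor of 1.05. Tap1 overlaps Psmb9 on the opposite strand, Tapbp overlaps Zbtb22, and the strand setting of the counting is not given, so reads of these pairs may be mixed.

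The general chaperones of the loading complex also serve other secretory proteins. Calr, calreticulin, measured 484 and 485 CPM in the control libraries, against 470 and 329 CPM in the knockout libraries (log2 fold change -0.28 ± 0.19, edgeR adjusted p = 0.60), where knockout 2 stood apart. Pdia3, the disulfide isomerase ERp57, gave 0.03 ± 0.16, and Erap1, which trims peptides to length, gave -0.34 ± 0.18 (edgeR adjusted p = 0.53). Of the 10 genes for loading and chaperones, 5 had a fold change above 0 and 5 below, and 0 passed (0 at an unadjusted p under 0.05; 0 with DESeq2 or voom). The immunoproteasome, which cuts the peptides, had 4 of 5 genes above 0 and a median of 0.20. Its regulator subunits Psme1 and Psme2 gave 0.20 ± 0.11 and 0.16 ± 0.11 (edgeR adjusted p = 0.54 and 0.62), and 0 of 5 passed (0 at an unadjusted p under 0.05; 0 with DESeq2 or voom).

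Nlrc5, the transactivator, was high in 1 library. It measured 35.6 CPM in control 1 (595 counts) against 17.1 CPM in control 2, 19.4 CPM in knockout 1 and 21.8 CPM in knockout 2. The knockouts lay between the controls, with a log2 fold change of -0.35 ± 0.34 (edgeR adjusted p = 0.71). Without control 1 the value was 0.26, so its direction rests on that library. Rfx5, a subunit of the factor that binds the X box of class I and class II promoters, measured 34.4 and 42.1 CPM in the control libraries, against 26.6 and 29.8 CPM in the knockout libraries (-0.44 ± 0.16, edgeR adjusted p = 0.43). The NF-κB genes Nfkb1 and Nfkbia, the latter an inhibitor and target of the factor, gave -0.20 ± 0.11 and 0.23 ± 0.20. Of 17 genes of class I transcriptional control, 8 were above 0 and 9 below, and 0 passed (0 higher and 1 lower at an unadjusted p under 0.05; 0 with DESeq2 or voom).

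Interferon is the main inducer of class I genes, and its receptors were expressed. Ifngr2, a chain of the interferon gamma receptor, measured 29 and 25.7 CPM in the control libraries, against 36.8 and 43 CPM in the knockout libraries (log2 fold change 0.54 ± 0.15, edgeR adjusted p = 0.43). Both knockouts lay above both controls, as for 21.3% of tested genes. Ifnar1, of the type I receptor, gave -0.04 ± 0.12, and the kinase Jak1 -0.13 ± 0.14. Of 11 receptors and kinases 0 passed (1 higher and 0 lower at an unadjusted p under 0.05; 0 with DESeq2 or voom). Of 27 interferon-stimulated genes, 19 passed the count filter and 0 passed edgeR's test (1 higher and 1 lower at an unadjusted p under 0.05; 0 with DESeq2 or voom). Most were at low levels. The most abundant, the RNA sensor Ifih1, measured 13.4 to 21.7 CPM and gave -0.20 ± 0.25, and Usp18, which restrains the type I receptor, gave -0.18 ± 0.26. Gbp7, a guanylate-binding protein, measured 1.62 and 2.1 CPM in the control libraries, against 0.506 and 0.862 CPM in the knockout libraries (-1.45 ± 0.46, edgeR adjusted p = 0.43). Ifih1, Usp18 and Gbp7 had log2 fold changes below 0, as 5 of the 19 tested genes had, whereas 14 were above 0. The summed level of the list was 73.5 and 65.9 CPM in the control libraries, against 59.5 and 105 CPM in the knockout libraries, so knockout 2 was the high library. The median log2 fold change was 0.60 with it and -0.20 without it.

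The larger differences in class I genes lay within the groups. Control 1 exceeded control 2, and knockout 2 exceeded knockout 1, for H2-K1, H2-D1, B2m, Tap1, Tap2 and Nlrc5, and by a hair for Cd200. This made 7 of the 10 genes and 11 of the 14 tested heavy chains (78.6%), beside 26.1% of all tested genes. Among the other class I lists, 4 of 10 genes of peptide loading and chaperones, 2 of 5 of the immunoproteasome and 6 of 17 of transcriptional control (35.3%) had it. Of 19 tested interferon-stimulated genes 12 had it, and of 11 interferon receptors and kinases 7. These tallies share genes with the 7 of 10. B2m, Tap1 and Tap2 are also in the peptide loading list, Nlrc5 in the transcriptional control list, and H2-K1 and H2-D1 in the heavy chain list. For H2-K1 the log2 difference was 0.52 between controls and 0.63 between knockouts, and for Tap1 it was 0.37 and 0.69. The heavy chain list had median differences of 0.33 and 0.59, where the median of all tested genes was 0 for both. H2-Q4, H2-Q6 and H2-Q7, nonclassical heavy chains of the Qa-2 region, had the same order. H2-Q7 measured 31.7 and 16.2 CPM in the control libraries, against 14.2 and 35.3 CPM in the knockout libraries, and H2-Q4 56.5 and 42.1 CPM in the control libraries, against 38.8 and 80 CPM in the knockout libraries. This ordering was seen in the values and has no test, and genes of 1 library share its preparation and depth.

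Markers of other cells shared that order in part. Of 7 general leucocyte markers 5 had it, of 8 tested class II genes 4, and of 11 tested T cell markers 2, beside 26.1% of all tested genes. Langerhans cell and macrophage markers had it in 4 of 7 tested. It was seen in 1 of 5 tested fibroblast, 0 of 5 melanocyte, 3 of 14 bulge stem cell and 3 of 12 cycling cell markers. For interfollicular differentiation it was 1 of 14, and for sebaceous gland 1 of 12. Endothelial markers summed to 11 and 5.83 CPM in the control libraries, against 5.38 and 15.9 CPM in the knockout libraries, which is the same order. Of the 8 markers 3 were tested, and 2 of these had the order. Cdh5, the defining cadherin, had 23 and 9 counts in controls and 3 and 3 in knockouts. It was not tested and was level between the knockouts. Egfl7 measured 1.29 CPM in knockout 1 and 0.718 CPM in knockout 2, the reverse of that order. The leucocyte markers summed to 47.3 and 42.6 CPM in the control libraries, against 46 and 46.5 CPM in the knockout libraries. Most of it was Arhgdib, at 28.1 and 26.1 CPM in the control libraries, against 30.2 and 28.6 CPM in the knockout libraries. Ptprc, which encodes CD45, was at 2.37 to 3.07 CPM. MHC class II genes, which mark antigen-presenting cells, summed to 112 and 97.6 CPM in the control libraries, against 111 and 127 CPM in the knockout libraries, and 0 of 8 tested passed (0 at an unadjusted p under 0.05; 0 with DESeq2 or voom). Cd74, the class II invariant chain, measured 25.4 to 31.4 CPM, and H2-Ab1 23.4 to 29.3 CPM. H2-DMb1, of the class II peptide exchanger, gave a log2 fold change of 0.35 ± 0.21 (edgeR adjusted p = 0.57). Langerhans cell and macrophage markers summed to 148 and 176 CPM in the control libraries, against 204 and 217 CPM in the knockout libraries, most of it Mfge8, which other cells also express. Cd207, which defines Langerhans cells, was at 2.06 to 3.71 CPM. Interfollicular differentiation markers, higher in control 1 and knockout 1 than in the other library of each group, had another order than class I. Irf1, an interferon-induced activator of class I genes that was named after its values were seen, measured 9.82 and 6.54 CPM in the control libraries, against 6.44 and 21.2 CPM in the knockout libraries, which is the order of H2-K1. The part of leucocytes, endothelial cells or interferon in this ordering was not tested.

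**Figure D4:**
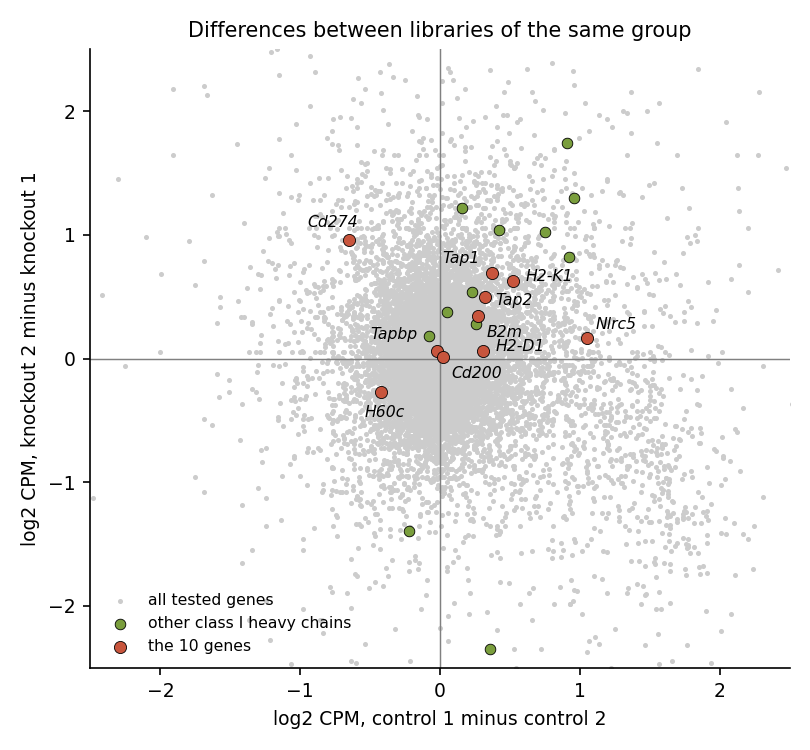
Differences between libraries of the same group in log2 CPM (horizontal: control 1 minus control 2; vertical: knockout 2 minus knockout 1) for all tested genes (grey; 68 lie beyond the axes), class I heavy chains (green) and the 10 genes (red). H2-K1 at 0.52 and 0.63, Tap1, Tap2, B2m and most heavy chains lie in the upper right, Cd200 and Tapbp lie at the centre and H60c lies at -0.42 and -0.27.

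Cd200, the ligand that marks the bulge, was the steadiest of the 10 genes. It measured 238 and 234 CPM in the control libraries, against 241 and 242 CPM in the knockout libraries. The knockouts lay above the controls by a factor of 1.02 (236 ± 2.5 and 241 ± 0.71 CPM, SD, n = 2 each; log2 fold change 0.03 ± 0.11, SE, edgeR adjusted p = 0.92). Of the receptors that read it, Cd200r1, Cd200r2, Cd200r3 and Cd200r4 had 0 counts in every library. Cd274 measured 0.898 and 1.46 CPM in the control libraries, against 0.598 and 1.25 CPM in the knockout libraries, from 15, 43, 13 and 26 counts. Its groups overlapped, and at this depth no difference was detectable (-0.38 ± 0.53, edgeR adjusted p = 0.80). Leaving out control 2 gave 0.06 and leaving out knockout 1 gave 0.05. Its receptor gene Pdcd1 had 1 count in all, and the second PD-1 ligand, Pdcd1lg2, likewise.

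Other inhibitory surface molecules were more abundant than Cd274. Nt5e, which encodes CD73, an enzyme that makes immunosuppressive adenosine, measured 465 and 565 CPM in the control libraries, against 502 and 436 CPM in the knockout libraries (log2 fold change -0.13 ± 0.15, edgeR adjusted p = 0.76). Lgals9, galectin 9, measured 23 and 21.4 CPM in the control libraries, against 29.7 and 39.3 CPM in the knockout libraries (0.64 ± 0.18, edgeR adjusted p = 0.43). Its knockouts both lay above both controls, as for 21.3% of tested genes. Vsir, the checkpoint molecule VISTA, which was named after its values were seen, measured 29.4 and 38.7 CPM in the control libraries, against 48.1 and 63.3 CPM in the knockout libraries (0.71 ± 0.20, edgeR adjusted p = 0.43). Of 10 tested inhibitory ligands, 5 were above 0 and 5 below, and 0 passed edgeR's test or were called by DESeq2 or voom. At an unadjusted p under 0.05 in edgeR, 2 were higher, Lgals9 and Vsir, and 0 lower, beside 4.8% and 5.94% of all tested genes. Fasl and Tnfrsf14 had 1 count each over the 4 libraries, and Ido1 had 0.

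Among secreted factors linked to follicle immune privilege, 4 of 10 were tested. Tgfb1 measured 19.6 and 20.6 CPM in the control libraries, against 29 and 39.8 CPM in the knockout libraries (log2 fold change 0.77 ± 0.19, edgeR adjusted p = 0.43). Its knockouts both lay above both controls, as for 21.3% of tested genes. Mif, a cytokine that inhibits natural killer cells, gave 0.05 ± 0.18. Of the 4, 0 passed edgeR's test or were called by DESeq2 or voom. At an unadjusted p under 0.05 in edgeR, 1, Tgfb1, was higher, beside 4.8% of all tested genes. Il10, Vip, Calca and Sst had 0 counts in every library, and Pomc and Igf1 had at most 4.

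In the edgeR test 0 of the 10 genes passed (0 higher and 1 lower, H60c, at an unadjusted p under 0.05, beside 4.8% of tested genes higher and 5.94% lower). DESeq2 called 1 of the 10, H60c, where it called 0.587% of genes in all, and limma-voom called 0. As H60c was chosen for this difference, its call is not support for it. It was also called without a count filter, where 1.79% of genes were, and with the replicate number as a block, where 0.743% were. It was not called with RLE or upper-quartile normalization, where 0.00701% of genes were, with the stricter count filter (0.00856%) or with the exon length trend removed (0.014%). None of the 10 was called without control 1 (0.0135%), control 2 (0.00674%), knockout 1 (0.436%) or knockout 2 (0.027%).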

How the data were processed

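RNA of bulge cells from 2 control and 2 knockout mouse samples was sequenced from directional, polyA-selected libraries, per the labels' protocols. The deposited values are raw counts per Ensembl gene. Per the submitters' processing notes, Trim Galore 0.6.0, cutadapt, FastQC, STAR 2.7.0e and DESeq2 1.26.0 were used with GRCm38 (mm10); the sources used here do not give the counting tool, strand setting or annotation release. All 55536 identifiers matched GENCODE M21 (GRCm38), which gave symbols, positions and merged exon lengths. Counts were analysed in R 4.3.3 with edgeR 4.0.16: filterByExpr left 14259 genes, TMM normalization, quasi-likelihood test (robust, no covariates), Benjamini-Hochberg adjustment over all tested genes and a threshold of 0.05. CPM use effective library sizes, and log2 CPM a prior count of 2. SEs are the fold change over the root of the F statistic. The tests were checked on simulated data. DESeq2 1.42.0, limma-voom (limma 3.58.1) and other alternatives are given in the closing section. Replicates were not duplicates (chi-square per degree of freedom 31.6 and 41.9).

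The 10 genes and the 22 gene lists were chosen with earlier results of these data known. The text names every gene called in each of 12 pathway lists and, in a list without calls, its 2 most abundant genes and the 1 with the smallest p. Any further gene was picked with its values in view. Genes like H60c were taken from tested genes with a mean of at least 5 CPM that were neither predicted genes nor among the 10 genes. The other 10 lists hold cell type markers. Sequences are from RefSeq (GRCm38.p6).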

Additional observations from a re-analysis of the deposited data

How the results depend on the processing

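The count of genes called in all was 1 in the main edgeR test. It was 1 with RLE or upper-quartile normalization, with at least 50 counts in 2 libraries and with limma-voom, 2 with the exon length trend removed, 80 with DESeq2, 430 without a count filter and 106 with the replicate number as a block; leaving out 1 library gave 1 to 65, the highest without knockout 1. Of the 10 genes, 0 were called in the main test and 1, H60c, with DESeq2, without a count filter and with the replicate block; leaving out 1 library gave 0 to 0. The labels do not pair the replicate numbers, and across genes the differences of same-numbered libraries had a correlation of 0.12, so the block is a fit on a shared number only. H60c ran from -1.54 to -1.09 (log2) when 1 library was left out and was -1.35 with the length trend removed. Of the 10 genes, 7 changed sign under at least 1 alternative. Tap1 turned to -0.0029 with limma-voom and -0.0046 with the replicate block. Leaving out 1 library gave ranges of -0.36 to 0.32 for Tap1, -0.24 to 0.25 for Tap2, -0.29 to 0.35 for H2-K1, -0.16 to 0.13 for H2-D1, -0.22 to 0.12 for B2m, -0.77 to 0.26 for Nlrc5 and -1 to 0.06 for Cd274. Tapbp (-0.1 to -0.04) and Cd200 (0.03 to 0.05) kept their sign. Summing all heavy chains in place of H2-K1 and H2-D1 moved the log2 ratio from 0 to 0.11. Cd274 was not tested at the stricter filter, and its 13 to 43 counts limit what can be said of it.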
